A study of Mus musculus with 8 samples.

Results

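The acute phase and lipocalin genes described here are 10 mouse genes, Lcn2, Orm1, Orm2, Lrg1, Saa1, Saa2, Saa3, Saa4, Hp and Apcs. They were taken by gene symbol, with every probe that carries one of these symbols on the array platform. This gave 12 probes of the 25697 on the array, and 10 genes of the 16593 with a named probe. Gene expression was measured on 8 Illumina BeadArrays of RNA from non-tumour liver of male A/J mice, an inbred strain, with 2 arrays in each of 4 groups. The vehicle group received olive oil by gavage, and the CCl4 group received 0.1 cc of a 40% solution of carbon tetrachloride (CCl4) in that oil. Gavage was repeated 3 times per week for 18 weeks, and CCl4 is a hepatotoxin whose long use scars the liver. The other 2 groups received CCl4 together with erlotinib, labelled 2 mg and 5 mg, a small molecule that inhibits the kinase of the EGF receptor. The labels state neither the body weight behind these doses nor the days of erlotinib treatment, and no group received erlotinib without CCl4. The protocol places death in week 19 after a washout of 1 week, whereas the sample sources read week 18. Ages are not given. Whether both arrays of a group came from separate mice is not stated, so p-values measure only the spread between these arrays, which may be technical.

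Acute phase proteins are plasma proteins that hepatocytes make in larger amount (positive) or smaller amount (negative) during inflammation or injury. Interleukin 6, acting through STAT3, and interleukin 1, acting through NF-kB and C/EBP factors, are the usual inducers in the liver. Lipocalins are small barrel-shaped proteins that hold lipids, odorants or other small ligands. Lcn2 belongs to them and binds the siderophores with which bacteria take up iron, and the orosomucoids Orm1 and Orm2 are plasma lipocalins that carry drugs and lipids. Hp encodes haptoglobin, which binds free haemoglobin, and Lrg1 encodes a secreted leucine-rich glycoprotein that binds receptors of the TGF-beta family. Saa1 and Saa2 encode the acute phase serum amyloid A apolipoproteins, Saa3 is known from macrophages and fat as well as liver, and Saa4 is the form that is made constitutively. Apcs encodes serum amyloid P, a pentraxin that is an acute phase protein in the mouse.

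Promoter sequences are shown for the 3 genes that rose most with CCl4 and for the 1 that fell. They come from RefSeq for the reference assembly GRCm38.p6, which is the C57BL/6J strain and not A/J, and 8 of the 10 genes have an entry there, the exceptions being Orm1 and Hp. Each run below holds the 250 bases before the transcription start, 5′ to 3′ on the gene's own strand, and capitals mark matches to the C/EBP pattern TTNNGNAA on either strand. Lcn2 lies at chr2:32387740-32387989 on the minus strand, Orm2 at chr4:63362199-63362448 on the plus strand, Lrg1 at chr17:56121947-56122196 on the minus strand and Saa4 at chr7:46732604-46732853 on the minus strand.
Lcn2: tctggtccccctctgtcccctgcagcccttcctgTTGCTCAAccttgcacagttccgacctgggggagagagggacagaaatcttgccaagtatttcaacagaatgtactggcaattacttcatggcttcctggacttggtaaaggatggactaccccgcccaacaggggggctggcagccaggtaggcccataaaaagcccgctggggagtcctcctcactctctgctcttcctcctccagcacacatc
Orm2: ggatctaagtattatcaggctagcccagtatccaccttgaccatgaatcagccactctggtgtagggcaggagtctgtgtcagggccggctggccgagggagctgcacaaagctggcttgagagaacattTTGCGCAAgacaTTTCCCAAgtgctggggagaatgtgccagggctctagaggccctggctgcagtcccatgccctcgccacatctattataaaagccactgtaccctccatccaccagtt
Lrg1: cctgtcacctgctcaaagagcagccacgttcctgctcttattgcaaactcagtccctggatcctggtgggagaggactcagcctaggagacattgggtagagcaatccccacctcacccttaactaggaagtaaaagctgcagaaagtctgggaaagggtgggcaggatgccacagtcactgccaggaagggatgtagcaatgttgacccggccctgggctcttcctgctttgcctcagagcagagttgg
Saa4: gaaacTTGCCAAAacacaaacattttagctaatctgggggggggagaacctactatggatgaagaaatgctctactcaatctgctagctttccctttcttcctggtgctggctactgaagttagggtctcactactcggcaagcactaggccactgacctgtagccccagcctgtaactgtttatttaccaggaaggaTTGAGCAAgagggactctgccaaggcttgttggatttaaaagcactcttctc
The search ran from 250 bases before to 50 after the start. A C/EBP match was present in 6 of the 8 promoters (Lcn2, Orm2, Saa1, Saa2, Saa3 and Saa4) and in 40.7% of 32841 mouse promoters of the same length. The Orm2 match at -120 to -113 reads the same on both strands, and a further match lies at -108 to -101. In Lcn2 the match lies at -216 to -209, and in Saa4 matches lie at -245 to -238 and at -52 to -45. The STAT3 pattern TTCNNNGAA was found in 1 of the 8 (Apcs) and in 8.30% of all promoters, and the NF-kB consensus in 0 of the 8 and in 4.51% of all promoters. The promoters of Saa1 and Saa2, which neighbour each other on chromosome 7, were identical at 238 of 251 aligned positions (94.8%). Between other pairs of the 8 promoters, identity did not exceed 53.9%. In the same assembly Orm1, Orm3 and Orm2 follow each other on chromosome 4, Saa3, Saa4, Saa1 and Saa2 on chromosome 7, and Apcs lies beside Crp on chromosome 1. Probes of Orm1, Orm2, Saa1 and Saa2 could take up RNA of a near-identical neighbour, so these 4 gene names are less certain than the rest.

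Levels are normalized log2 intensities, and a difference is the mean of one group minus the mean of another on that scale. A gene is called changed where limma's moderated test across 11022 genes gave a Benjamini-Hochberg adjusted p under 0.05. The arrays' median raw intensities ranged from 99.8 to 130. Background was set on each array at the 99th percentile of 1326 probes for receptors of the nose (odorant, vomeronasal, trace amine), at raw intensities of 111 to 145. Of the 10 genes, 7 were above it on all 8 arrays, while Saa3 was above it on 3 arrays, Saa2 on 1 and Saa1 on 0. The Saa2 probe did not pass the filter on dim probes, and the other 9 genes were tested. Slides and dates are not given in the files, so a difference between such batches and a difference between groups cannot be told apart. The titles of the vehicle arrays carry another letter code than those of all other arrays, and its meaning is not given.

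With CCl4, Lcn2, Orm2, Lrg1, Orm1 and Hp rose and Saa4 fell, so that 5 of 9 tested genes were higher and 1 was lower. Among all tested genes, 6.74% were called higher and 5.92% lower in this comparison. The members were chosen with earlier results of these data known, so an excess over such shares is no test of the family. The median difference of the 9 genes was 0.38, against -0.00 over all genes. Against the CCl4 arrays, 1 gene (Saa4) was higher and 2 (Lcn2 and Lrg1) were lower with erlotinib 2 mg, where 4.16% of all genes were called higher and 4.42% lower. With erlotinib 5 mg, Saa4 was again higher and Lcn2, Lrg1 and Apcs were lower, beside 4.42% of all genes called higher and 4.68% called lower. These 3 comparisons share the CCl4 arrays, so a high or low value on one of those arrays enters all of them. Against vehicle, Lcn2 and Orm2 were higher at both doses and no tested member was called lower. There 1.70% of all genes were called higher and 1.41% lower at 2 mg, and 1.17% were called higher and 0.726% lower at 5 mg. Between 5 mg and 2 mg, 0 of the 9 genes were called by limma and 0 had an unadjusted p under 0.05. Of all 11022 genes, 2 (0.0181%) were called between the doses and 503 had an unadjusted p under 0.05. With 2 arrays per group, groups without overlap are common. Of all genes, 48.6% had none between CCl4 and vehicle, and 44.2% (2 mg) and 46.0% (5 mg) between erlotinib and CCl4. The shares against vehicle were 42.3% at 2 mg and 41.0% at 5 mg, and 32.9% between the doses. A lack of overlap named below is thus only a description. In RNA from whole liver, fewer cells of a type and less RNA per cell cannot be told apart.

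**Figure D1:**
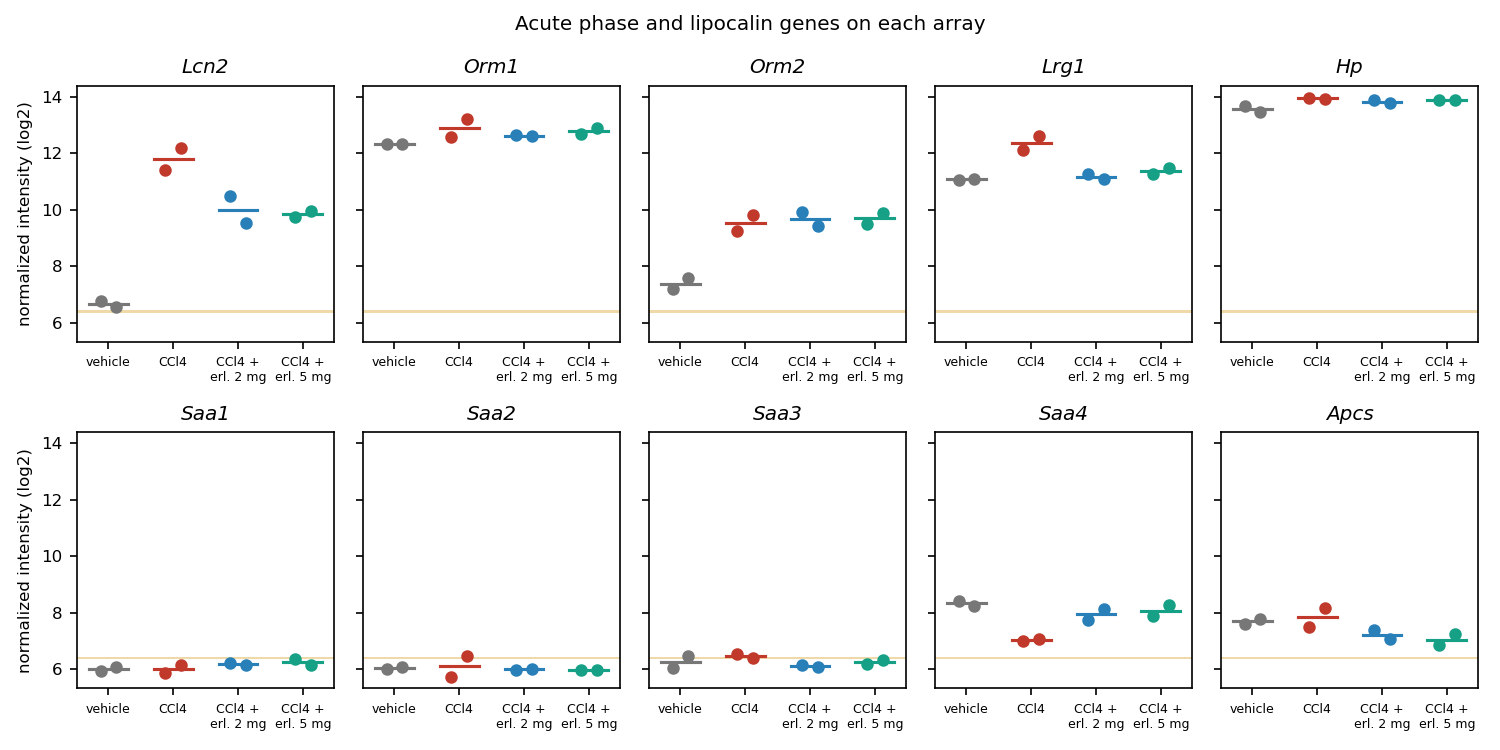
Normalized intensity (log2) of the 10 genes on each of the 8 arrays, with 1 panel per gene, 1 point per array and a line at the mean of each group of 2 arrays; the pale band marks background, from the lowest to the highest value over the 8 arrays. Lcn2 climbed from 6.68 on average with vehicle to 11.80 with CCl4, Orm2 averaged 9.53 to 9.70 in all 3 CCl4-treated groups, Saa4 was lowest with CCl4 alone, and Saa1, Saa2 and Saa3 lay near or under background, Saa3 above it on 3 arrays and Saa2 on 1.

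Lcn2 (probe ILMN_2712075) gave 6.78 and 6.58 on the vehicle arrays and 11.42 and 12.18 on the CCl4 arrays. With erlotinib 2 mg the arrays read 10.49 and 9.52, and with 5 mg 9.75 and 9.94. The groups with vehicle, with CCl4 alone and with CCl4 and erlotinib did not overlap, whereas the arrays of both doses did. The rise with CCl4 was 5.12 ± 0.25 (SE, 2 arrays per group), a 34.9-fold higher intensity with an adjusted p of 9.98e-10 by limma. It ranked 1 of 11022 genes by size of rise. Lcn2 fell by 1.80 ± 0.25 with erlotinib 2 mg against CCl4 alone (limma adjusted p 0.000158), which is 3.47-fold. At 5 mg the fall against the same CCl4 arrays was 3.88-fold (log2 -1.96 ± 0.25, limma adjusted p 6.86e-05). Erlotinib-treated livers still stood above vehicle, by 10.0-fold at 2 mg (limma adjusted p 5.85e-07) and by 8.99-fold at 5 mg (limma adjusted p 1.53e-06). Lcn2 ranked 1 of 11022 genes by size of rise in both of these comparisons too. In the deposited raw intensities Lcn2 read 166 and 142 with vehicle, 2179 and 4581 with CCl4, 1105 and 1038 with 2 mg and 893 and 1110.2 with 5 mg. Raw values of the 2 mg arrays were thus nearly equal, and their normalized values came apart in the normalization. The authors' normalized intensities set these 2 arrays apart in the same way, at 1421 and 775. Those intensities were 157 and 142 with vehicle and 2581 and 4897 with CCl4. On the vehicle arrays the raw values of Lcn2 lay close to background, which was 143 and 134. The folds of Lcn2 against vehicle thus start near the floor. The call at 2 mg against CCl4 was lost with an intensity trend and a robust prior (limma adjusted p 0.0573), with the difference itself unaltered.

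Orm2 (probe ILMN_2591264) gave 7.20 and 7.58 with vehicle and 9.26 and 9.81 with CCl4. It gave 9.92 and 9.43 with erlotinib 2 mg and 9.52 and 9.88 with 5 mg. All 6 CCl4-treated arrays lay above both vehicle arrays, and the 3 treated groups overlapped each other. The rise with CCl4 was 2.14 ± 0.19 (4.41-fold, limma adjusted p 1.13e-06), rank 28 of 11022. Against vehicle, Orm2 was 2.28 ± 0.19 higher at 2 mg (limma adjusted p 2.49e-06) and 2.31 ± 0.19 higher at 5 mg (limma adjusted p 3.37e-06). Among the rises against vehicle it ranked 3 at 2 mg and 4 at 5 mg. Against CCl4 alone the difference was 0.14 at 2 mg, with a 95% interval of -0.27 to 0.55 (limma adjusted p 0.825). At 5 mg it was 0.16, with an interval of -0.25 to 0.58 (limma adjusted p 0.785). A fall of the size seen for Lcn2 lies outside both intervals. No alternative processing ended or added a call for Orm2.

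Orm1 (probe ILMN_1226935) was already abundant with vehicle, at 12.34 on both arrays, equal because the probe held the same rank on each. It gave 12.58 and 13.21 with CCl4, 12.65 and 12.60 with 2 mg and 12.68 and 12.90 with 5 mg. Every treated array was above the vehicle arrays, and the 3 treated groups overlapped apart from the 2 doses, which did not. Of all genes, 32.9% showed such a gap between the doses. The rise with CCl4 was 0.55 ± 0.16 (1.47-fold, limma adjusted p 0.0319). Against CCl4 alone the differences were -0.27 at 2 mg (limma adjusted p 0.453) and -0.10 at 5 mg (0.852). Against vehicle they were 0.29 (limma adjusted p 0.511) and 0.45 (0.264). The rise leaned on CCl4 replicate 2, without which it was 0.24 (limma adjusted p 0.433). It was also not called without vehicle replicate 1 (0.56, p 0.147), vehicle replicate 2 (0.55, p 0.146) or erlotinib 2 mg replicate 2 (0.55, p 0.0501), all adjusted p-values from limma. It was likewise not called with the authors' normalized values (0.71, limma adjusted p 0.0683), without background correction (0.55, p 0.0535), under median scaling (0.29, p 0.758) or in a fit of only the compared arrays (0.52, p 0.114). Without CCl4 replicate 1, Orm1 was called lower at 2 mg than with CCl4 (-0.59, limma adjusted p 0.0195). Raw intensities of the vehicle arrays, 6095 and 5564, lay between those of the CCl4 arrays, 5079 and 9308.

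Lrg1 (probe ILMN_2652500) gave 11.06 and 11.10 with vehicle, 12.13 and 12.63 with CCl4, 11.25 and 11.09 with erlotinib 2 mg and 11.26 and 11.47 with 5 mg. Both CCl4 arrays stood above the other 6, and the 2 mg arrays overlapped the vehicle arrays. Lrg1 rose with CCl4 by 1.30 ± 0.15 (2.46-fold, limma adjusted p 1.04e-05). It fell by 1.21 ± 0.15 with 2 mg against CCl4 alone (limma adjusted p 5.34e-05) and by 1.02 ± 0.15 with 5 mg (limma adjusted p 0.000232). The remaining difference from vehicle was 0.09 at 2 mg, with a 95% interval of -0.23 to 0.40 (limma adjusted p 0.881), and 0.28 at 5 mg, with an interval of -0.03 to 0.60 (limma adjusted p 0.537). For Lcn2, the same intervals against vehicle began at 2.80 and 2.64. All 3 calls of Lrg1 were lost under median scaling, at differences of 0.99, -1.07 and -0.78 (limma adjusted p 0.0514, 0.0727 and 0.187).

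Hp had 3 probes, all above background on every array. The brightest (ILMN_2944824) gave 13.66 and 13.46 with vehicle, 13.97 and 13.92 with CCl4, 13.88 and 13.76 with 2 mg and 13.88 and 13.88 with 5 mg. Its treated arrays all lay above its vehicle arrays, within a narrow range. With CCl4 it rose by 0.38 ± 0.12 (1.30-fold, limma adjusted p 0.0413). Fitted over all probes, the other 2 Hp probes gave 0.42 and 0.41 with limma adjusted p-values of 0.0510 and 0.0563, so that they missed the threshold at a similar size. Against CCl4 alone, the brightest probe differed by -0.12 at 2 mg (limma adjusted p 0.713) and by -0.06 at 5 mg (0.878). There the other probes did not share its direction throughout, at 0.06 and 0.13 for ILMN_2668510 and -0.26 and 0.04 for ILMN_2668509. Against vehicle the brightest probe differed by 0.26 at 2 mg (limma adjusted p 0.354) and by 0.32 at 5 mg (0.281). ILMN_2668510 was called higher than vehicle at 5 mg (0.54, limma adjusted p 0.0488). The rise with CCl4 was not called without either vehicle array (0.48 without replicate 1, 0.29 without replicate 2) or either CCl4 array (0.37 and 0.41). It was also not called without erlotinib 2 mg replicate 1 (0.36) or either 5 mg array (0.38 and 0.37), nor in a fit of only the compared arrays (0.33), and under median scaling it was 0.09 (limma adjusted p 0.896). Raw intensities of the brightest probe overlapped, at 15005 and 12432 with vehicle and 12886 and 15400 with CCl4.

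Among the serum amyloid A genes only Saa4 (probe ILMN_1247506) was above background on all 8 arrays. It gave 8.43 and 8.25 with vehicle, 7.01 and 7.06 with CCl4, 7.76 and 8.13 with 2 mg and 7.89 and 8.27 with 5 mg. The CCl4 arrays were the lowest of all, the 2 mg arrays lay between them and vehicle, and the 5 mg arrays reached the vehicle range. Saa4 fell with CCl4 by 1.30 ± 0.15 (2.47-fold, limma adjusted p 1.06e-05), rank 85 of 11022 by size of fall. With erlotinib it rose against the CCl4 arrays by 0.91 ± 0.15 at 2 mg (limma adjusted p 0.000681) and by 1.05 ± 0.15 at 5 mg (limma adjusted p 0.00019). Its differences from vehicle were -0.39 at 2 mg (limma adjusted p 0.226) and -0.26 at 5 mg (0.611). Both rises were lost under median scaling, at 0.85 and 0.98 (limma adjusted p 0.270 and 0.176). The inducible forms gave no such signal. Saa1 (probe ILMN_2826869) lay between 5.87 and 6.38 and was under background on every array, so none of its differences is a measure of the gene. Saa2 (probe ILMN_2758571) lay between 5.74 and 6.49 and was above background on CCl4 replicate 2 alone. Saa3 (probe ILMN_2772632) was above background on vehicle replicate 2 and on both CCl4 arrays, where it read 6.49, 6.55 and 6.41. Its remaining 5 arrays lay between 6.05 and 6.34, and its difference with CCl4 was 0.21 (limma adjusted p 0.450).

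Apcs (probe ILMN_2896170) gave 7.62 and 7.79 with vehicle and 7.52 and 8.18 with CCl4, so that these groups overlapped. With erlotinib it gave 7.40 and 7.06 at 2 mg and 6.86 and 7.26 at 5 mg, below every array of the other groups. Apcs differed by 0.14 with CCl4 (limma adjusted p 0.789). It fell by 0.79 ± 0.19 at 5 mg against CCl4 (1.73-fold, limma adjusted p 0.0117), and at 2 mg the difference of -0.62 ± 0.19 missed the threshold (limma adjusted p 0.0533). Against vehicle it differed by -0.48 at 2 mg (limma adjusted p 0.256) and by -0.65 at 5 mg (0.108). The call at 5 mg was lost without CCl4 replicate 2 (-0.46, limma adjusted p 0.240) and without erlotinib 5 mg replicate 1 (-0.59, p 0.176), and with the authors' normalized values (-0.62, p 0.0920). Under median scaling it was -0.86 (limma adjusted p 0.178). At 2 mg Apcs was called lower without CCl4 replicate 1 (-0.95, limma adjusted p 0.00356) or erlotinib 5 mg replicate 2 (-0.62, p 0.0498). Against vehicle the 5 mg difference was called without CCl4 replicate 1 (-0.65, limma adjusted p 0.0337) or 2 (-0.65, p 0.0366).

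**Figure D2:**
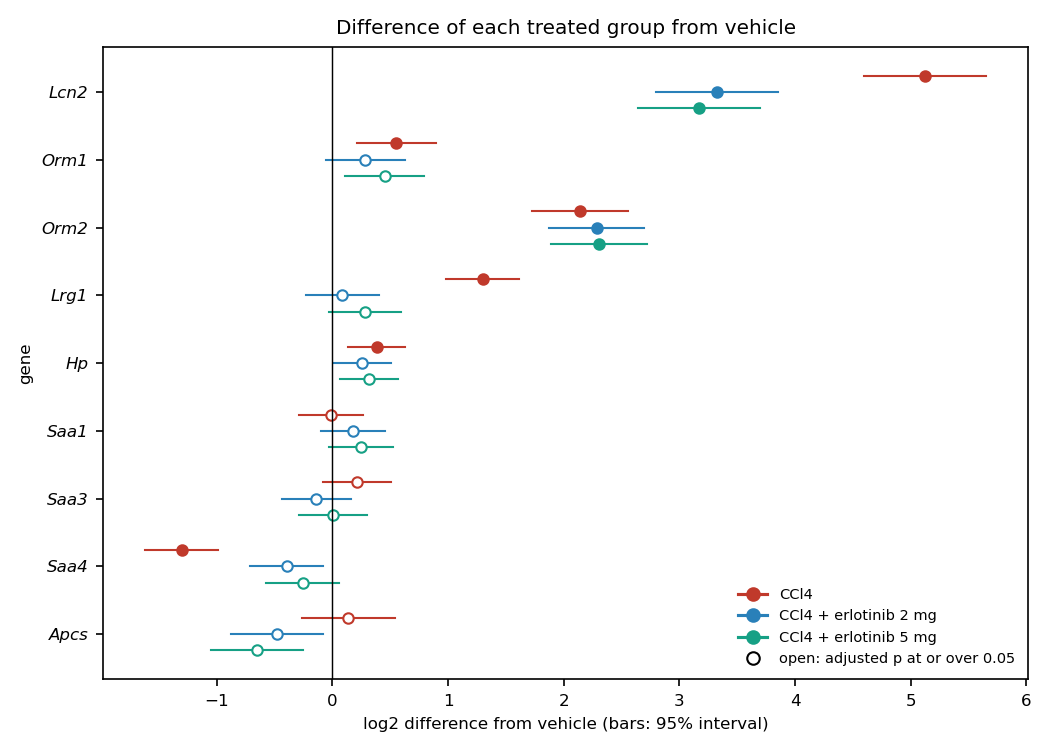
Difference from vehicle (log2) of the 9 tested genes in the CCl4 group and both erlotinib groups, as fitted by limma with 95% intervals; filled points have an adjusted p under 0.05 and open points do not. Lcn2 and Orm2 were called in all 3 groups, while Lrg1 and Saa4 were called with CCl4 alone and stood nearer to 0 with erlotinib.

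**Figure D3:**
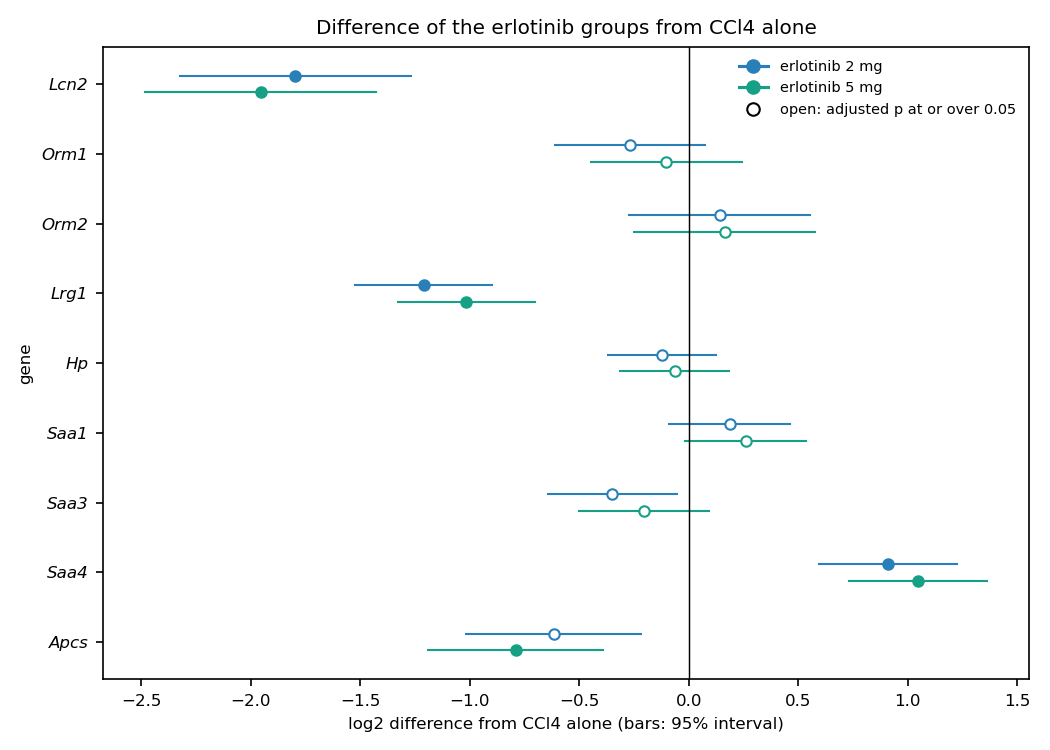
Difference from CCl4 alone (log2) of the same 9 genes at erlotinib 2 mg and 5 mg, with 95% intervals from limma and open points where the adjusted p was not under 0.05. Lcn2 and Lrg1 lay below 0 and Saa4 above 0 at both doses, and the intervals of Orm1, Orm2 and Hp held 0.

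Between the doses, Lcn2 at 5 mg differed from 2 mg by -0.16, with a 95% interval of -0.69 to 0.37, and Orm2 by 0.02, with an interval of -0.39 to 0.44. For Saa4 the difference was 0.14 (-0.18 to 0.45) and for Lrg1 0.20 (-0.12 to 0.51). All of these had a limma adjusted p of 0.996 or higher, and the intervals leave room for differences in either direction.

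The members fell into patterns that their class names do not separate. Over the 8 arrays, which share 1 normalization and 4 group means, Lcn2 correlated with Hp at r = 0.911, with Orm2 at 0.875 and with Lrg1 at 0.779. Orm2 and Lrg1 correlated at 0.436, and Saa4 ran against Lrg1 (-0.887) and Lcn2 (-0.831). These values describe 8 arrays and rest mainly on the 4 groups. Of 5488 other genes above background on at least 2 arrays, those most like Lcn2 were Ly6d (r = 0.994), Olfml3 (0.990) and Gdf10 (0.990). With vehicle all 3 averaged under the background of the vehicle arrays (6.43), Olfml3 at 6.19 and Gdf10 at 6.34. Ly6d, a small surface protein of the Ly6 family, averaged 6.13 with vehicle, 10.86 with CCl4, 8.96 with 2 mg and 8.78 with 5 mg. Most like Orm2 were Cpxm1 (0.991), Ly6e (0.970) and Tceal8 (0.967), and Ly6e averaged 8.18, 9.91, 10.04 and 9.99 in the same order. Cpxm1 lay close to background (6.37 to 6.45), averaging 6.36 with vehicle and 6.56 to 6.57 in the other groups. Ptprd (0.996), Ugt2b36 (0.995) and Ggact (0.991) were most like Saa4, and Ptprd, a receptor tyrosine phosphatase, averaged 8.15, 7.02, 7.83 and 7.94. Klc1 (0.969), Rpl29 (0.962) and Pfkfb4 (0.958) were most like Hp, and several group means of these 3 genes lay at or under background.

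Other acute phase proteins of the liver moved in both directions. Of 33 listed positive acute phase genes 27 were tested, and with CCl4 7 rose and 4 fell, with a median difference of -0.09 against -0.00 over all genes. Cd14, which binds bacterial lipopolysaccharide, rose by 3.16 ± 0.20 (limma adjusted p 2.34e-08), and Mt1, a metallothionein that binds zinc, by 1.20 ± 0.20 (0.000469). The haem-binding protein hemopexin, Hpx, rose by 0.52 ± 0.11 (limma adjusted p 0.00461). Mbl1, a mannose-binding lectin of the complement system, fell by 1.10 ± 0.15 (limma adjusted p 5.02e-05), and Serpina1a, an antitrypsin, fell by 0.96 ± 0.13 (6.99e-05). Crp, the pentraxin beside Apcs, fell by 0.79 ± 0.17 (limma adjusted p 0.00339), a call lost without CCl4 replicate 1 (-0.60, p 0.0577). The fibrinogen gamma chain Fgg rose by 0.44 ± 0.12 (limma adjusted p 0.0266) and hepcidin, Hamp, by 1.29 ± 0.37 (0.0307). Both of these calls were lost without vehicle replicate 1 (0.33 and 0.73) and without CCl4 replicate 2 (0.38 and 0.99), and Hamp was also lost without erlotinib 2 mg replicate 1 or 2 (1.29 in each, limma adjusted p 0.0519 and 0.0526). In all, the CCl4 call of Hamp was lost in 9 of 15 alternatives, with values from 0.73 to 1.84. Fga differed by 0.26 (limma adjusted p 0.240) and Serpina3n by 0.26 (0.305). Fgb was under background on both vehicle arrays and on CCl4 replicate 1, and no fold is given for it.

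With erlotinib 2 mg against CCl4, 2 of these 27 genes rose and 4 fell, and with 5 mg 4 rose and 6 fell, with medians of -0.09 and 0.09. Cd14 fell by 2.69 ± 0.20 at 2 mg (limma adjusted p 6.31e-07) and stood at -2.91 ± 0.20 at 5 mg (3.61e-07). Fgl1, a fibrinogen-like protein secreted by hepatocytes, fell by 1.70 ± 0.18 (limma adjusted p 1.83e-05) and 1.07 ± 0.18 (0.000843), and Fgg fell by 0.90 ± 0.12 (0.000151) and 0.42 ± 0.12 (0.0413). Mbl1 rose by 0.80 ± 0.15 (limma adjusted p 0.00166) and 0.98 ± 0.15 (0.000293). The 5 mg call of Fgg was lost without either CCl4 array (-0.49 and -0.37) or either 5 mg array (-0.39 and -0.45). Hamp differed by -0.62 at 2 mg (limma adjusted p 0.456) and fell by 1.41 ± 0.37 at 5 mg (0.0235), a call lost in 7 of 15 alternatives, with values from -2.17 (without erlotinib 5 mg replicate 1) to -0.63 (without replicate 2 of that group). Without CCl4 replicate 2 it was -1.11 and also lost. Hpx differed by -0.23 at 2 mg (limma adjusted p 0.319) and by -0.11 at 5 mg (0.734), and Crp by 0.22 (0.593) and 0.26 (0.494). With the authors' normalized values Hpx was called lower at both doses (-0.38 and -0.47, limma adjusted p 0.0147 and 0.00581). Against vehicle, 1 gene of the 27 was higher and 1 was lower at 2 mg, and 1 was higher and 0 were lower at 5 mg. The gene higher at both doses was Mt1, by 1.28 ± 0.20 (limma adjusted p 0.00131) and 1.26 ± 0.20 (0.002), calls that were lost with the authors' normalized values (1.27 and 1.25, limma adjusted p 0.0724 and 0.116) and under median scaling (1.07 and 1.17, p 0.449 and 0.496). Median scaling also ended the CCl4 calls of Mt1, Hpx, Mbl1, Serpina1a, Crp, Fgg, Fgl1 and Hamp, the erlotinib calls of Mbl1 and Fgg against CCl4 and the 5 mg calls of Fgl1 and Hamp, while those of Cd14 held.

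**Figure D4:**
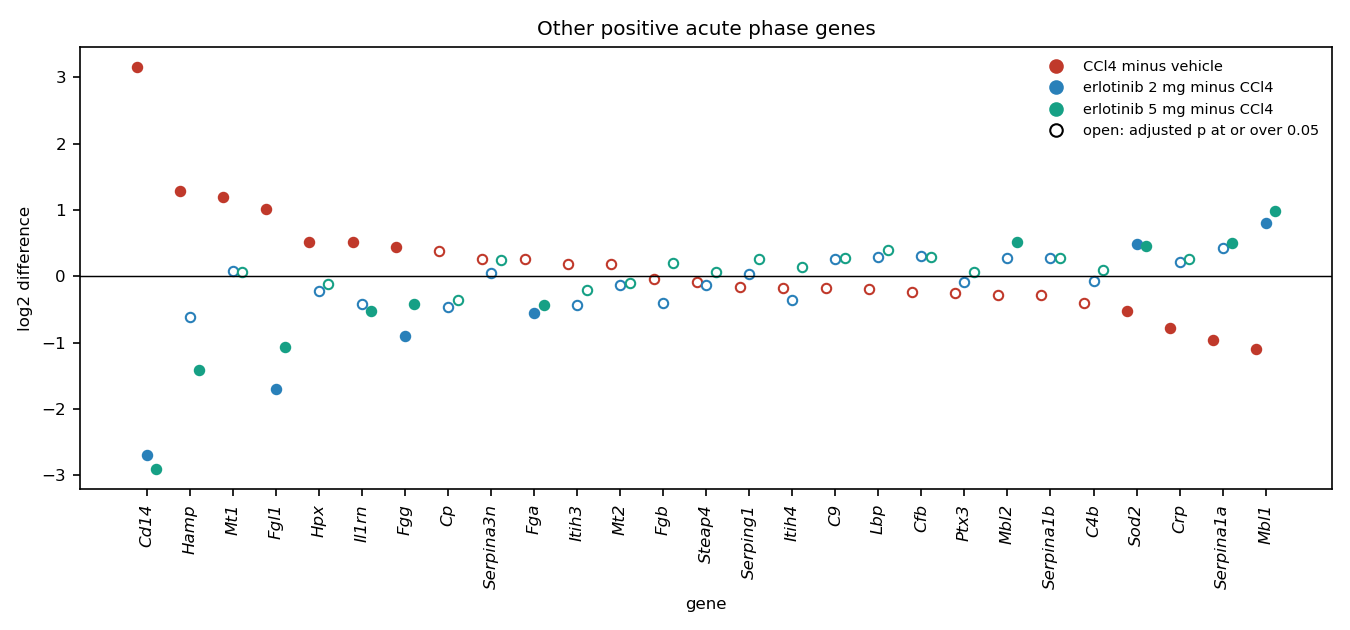
Differences (log2) of the 27 other tested positive acute phase genes with CCl4 against vehicle and with each erlotinib dose against CCl4, ordered by the first; filled points have a limma adjusted p under 0.05. Cd14 lay at 3.16 with CCl4 and at -2.69 and -2.91 with erlotinib, and Mbl1 lay at -1.10, 0.80 and 0.98.

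Of the negative acute phase genes 15 were tested, of which 1 rose and 3 fell with CCl4, at a median of -0.13. Serpina7, thyroxine-binding globulin, was the 1 that rose, by 3.90 ± 0.25 (limma adjusted p 2.39e-08), and it fell by 3.41 ± 0.25 at 2 mg (5.74e-07) against CCl4. Its difference from CCl4 at 5 mg was -2.77 ± 0.25 (limma adjusted p 2.92e-06). Serpina6, the corticosteroid-binding globulin, fell by 1.07 with CCl4 (limma adjusted p 0.0160) and rose by 1.05 at 2 mg against CCl4 (0.0235). Each of these 2 calls was lost in 8 of 15 alternatives. At 5 mg Serpina6 rose by 1.61 ± 0.28 (limma adjusted p 0.00101), a call lost with an intensity trend and under median scaling (p 0.173 and 0.0955). In all, 1 rose and 1 fell at 2 mg, and 2 rose and 1 fell at 5 mg. A list of lipocalins other than the members had 12 tested genes, among them Fabp1, which belongs to the related fatty acid binding proteins and was under background on every array. Of the 12, 0 rose and 4 fell with CCl4. The 4 were the major urinary proteins Mup21 (-4.24 ± 0.29, limma adjusted p 4.53e-08) and Mup20 (-3.25 ± 0.28, 6.05e-07), which carry pheromones, Mup5 and C8g. Mup5 was under background on both CCl4 arrays, at least 1.49-fold lower (limma adjusted p 0.000317). C8g, the lipocalin chain of complement component 8, fell by 0.81 ± 0.12 (limma adjusted p 0.000109). It rose by 0.73 ± 0.12 at 2 mg (limma adjusted p 0.000484) and by 0.70 ± 0.12 at 5 mg (0.000715) against CCl4, the 1 gene of the 12 called there, and both of these calls were lost under median scaling (0.82 and 0.85). Of 4 tested pentraxins, Apcs included, 1 (Crp) fell with CCl4, 0 were called at 2 mg and 1 (Apcs) fell at 5 mg. The Mup genes share most of their sequence, so the names of those probes are uncertain.

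Of 22 tested genes of the IL-6, STAT3 and C/EBP list, 1 rose and 4 fell with CCl4, 1 rose and 1 fell at 2 mg and 2 rose and 0 fell at 5 mg. Of all genes, 6.74% rose and 5.92% fell with CCl4, 4.16% and 4.42% at 2 mg and 4.42% and 4.68% at 5 mg, and the smaller of these counts are near those shares. Junb, a subunit of the AP-1 transcription factor, was the 1 that rose with CCl4, by 0.55 ± 0.12 (limma adjusted p 0.00428), a call lost without vehicle replicate 1 (0.47) or CCl4 replicate 2 (0.44). Against vehicle it was also higher at 2 mg, by 0.52 ± 0.12 (limma adjusted p 0.0237), and at 5 mg, by 1.11 ± 0.12 (4.51e-05). The rise at 5 mg against CCl4 was 0.56 ± 0.12 (limma adjusted p 0.00544), lost without CCl4 replicate 1 (0.46) or erlotinib 5 mg replicate 2 (0.52). The 2 mg call against vehicle was lost without vehicle replicate 1 (0.44) or 2 (0.60) and without erlotinib 2 mg replicate 1 (0.57) or 2 (0.47). Pim3, a kinase whose gene STAT3 activates, fell by 0.86 ± 0.13 with CCl4 (limma adjusted p 0.000144). Lifr, a receptor chain of the IL-6 family, was under background on both CCl4 arrays, at least 1.44-fold lower (limma adjusted p 0.00285), and was not called without vehicle replicate 2 (-0.48, p 0.0682). Stat3 differed by -0.17 with CCl4 (limma adjusted p 0.784), and by 0.15 and 0.16 with erlotinib (0.847 and 0.835). Its 5 mg arrays lay apart, at 6.81 and 7.76. Another Stat3 probe above background on every array was not higher with erlotinib. It read 6.95 and 6.93 with CCl4, 6.87 and 6.77 with 2 mg and 6.62 and 6.93 with 5 mg. A further, dimmer probe was under background on all vehicle and CCl4 arrays. Socs3, a feedback inhibitor of STAT3 signalling, was under background on all vehicle and CCl4 arrays and above it on 2 erlotinib arrays, so its difference with CCl4 is no measure of the gene. Il6ra was under background on both CCl4 arrays and on vehicle replicate 2, and no fold is given for it. The Il6st probe was above it on 0 arrays and was not tested. Cebpb differed by 0.14 with CCl4 (limma adjusted p 0.647) and fell by 0.65 ± 0.13 at 2 mg (0.00298), a call lost without erlotinib 2 mg replicate 1 (-0.48, p 0.0690). At 5 mg Cebpb differed by -0.34 (limma adjusted p 0.126). Cebpa, another C/EBP factor, went the other way. It fell by 0.67 with CCl4 (limma adjusted p 0.00984). Against CCl4 it rose by 0.70 at 2 mg (limma adjusted p 0.0113) and by 0.85 at 5 mg (0.00264). These calls of Cebpa were lost in 4, 4 and 2 of 15 alternatives. Of 20 genes of the IL-1, TNF and NF-kB list, 1 rose and 2 fell with CCl4, and 1 rose and 0 fell at each dose against CCl4, which is near the shares over all genes. Tnip1, which restrains NF-kB signalling, rose with CCl4 by 0.71 ± 0.12 (limma adjusted p 0.000462), a call lost when the gene's probes were averaged (0.30, p 0.0795). Il1rap, the accessory chain of the IL-1 receptor, fell by 1.62 ± 0.14 with CCl4 (limma adjusted p 7.16e-07) and rose by 0.65 ± 0.14 at 2 mg (0.00608) and 0.83 ± 0.14 at 5 mg (0.000881). At 2 mg that call was lost without CCl4 replicate 2 (0.43) or erlotinib 2 mg replicate 2 (0.58). Nfkbia, the NF-kB inhibitor, fell by 0.53 ± 0.14 with CCl4 (limma adjusted p 0.0162), lost without vehicle replicate 2 (-0.45) or CCl4 replicate 2 (-0.36), and Nfkbiz differed by -0.04 (0.922). Under median scaling the CCl4 calls of Lifr (-0.59), Nfkbia (-0.44) and Junb (0.65), its 5 mg call against CCl4 (0.50) and its calls against vehicle (0.55 and 1.15), the 2 mg call of Cebpb (-0.50) and the erlotinib calls of Il1rap (0.58 and 0.77) were lost. Cebpd is not analysed here.

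Receptors and partners of the member proteins counted 16 tested genes, of which 2 rose and 0 fell with CCl4. These were Hpx and Tgfbr2, a TGF-beta receptor chain, which rose by 0.81 ± 0.13 (limma adjusted p 0.000304). At 2 mg 1 was called higher against CCl4, and at 5 mg 0 were called. The Lcn2 receptor gene Slc22a17 was under background on all vehicle and CCl4 arrays and above it on erlotinib 2 mg replicate 1 alone, so its differences are no measure of the gene.

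Markers of cell types were set beside these results. All 12 tested hepatocyte markers were above background on at least 1 array, and with CCl4 0 rose and 6 fell. Against CCl4, 4 rose and 1 fell at 2 mg, and 5 rose and 1 fell at 5 mg, the 1 being Fga at both doses. The list also holds acute phase genes (Alb, Ttr, Fga, Fgb and Serpina1b). Of its tested genes, Pck1 was above background on 1 array and Fgb on 3. The Alb probe was dim, at 7.52 with vehicle and 6.83 with CCl4, beside 14.66 and 14.38 for Serpina1b. The summed level of all 12 tested hepatocyte markers was 81625 to 83519 with vehicle and 65211 to 68733 with CCl4. With erlotinib it was 79406 to 80013 at 2 mg and 76693 to 78686 at 5 mg. It was lowest in the group in which Saa4 was lowest and Lcn2 and Lrg1 were highest. Bright genes such as Serpina1b weigh most in this sum, and Alb, Fgb and Pck1 add little to it. Neutrophils store Lcn2, and of 8 tested neutrophil markers 3 were above background on at least 1 array. Elane, Mpo, Csf3r, Retnlg and Chil3 were above it on 0 arrays. S100a8 was at least 1.25-fold higher with CCl4 (limma adjusted p 0.00148), while the median difference of the 8 markers was 0.05. The S100a9 probe was under background on every array and was not tested. With vehicle the summed level of the 8 markers was 535 to 581, and with CCl4 610 to 629. It was 561 to 597 with 2 mg and 582 to 599 with 5 mg. That sum includes the 5 markers under background on every array, so much of it is background signal. Of 7 macrophage markers 3 rose with CCl4, C1qb by 1.38, C1qc by 1.17 and Lyz2 by 1.80. C1qa (0.39), Clec4f (0.14), Vsig4 (0.09) and Ctss (-0.12) were not called. Against CCl4, 0 of the 7 were called at either dose. C1qb, C1qc and Lyz2 were called higher than vehicle at both doses. The list summed to 1135 to 1240 with vehicle, 2010 to 2620 with CCl4, 1736 to 2334 with 2 mg and 1910.1 to 1921 with 5 mg. Brighter genes, these 3 among them, weigh most in that sum. Of 9 stellate cell and myofibroblast markers 4 rose with CCl4, and Acta2, smooth muscle actin, was the 1 that fell at each dose against CCl4. Their sums were 1259 to 1281, 1818 to 2292, 1715 to 1817 and 1387 to 1612 in the same order. Tested markers of endothelium (9), cholangiocytes (3), T and NK cells (4), B and plasma cells (2) and adipocytes (2) held 0 calls with CCl4, and 1 of 2 erythroid markers fell. Under background on every array were 2 of the endothelial markers, 2 of cholangiocytes and 3 of T and NK cells. The same held for 2 of B and plasma cells and 1 of adipocytes. For such markers the lack of a call is no measure of the cells. What part changes in these cells had in the results was not tested.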

How the data were processed

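Each of the 8 arrays gave 1 intensity per probe. The deposited table of non-normalized intensity values has no detection p-value. A further deposited table holds the authors' normalized intensity, its method unstated; the rank correlation of its columns with the raw columns of the same arrays was 0.9996 to 0.9999. In limma 3.58.1 (R 4.3.3), intensities were background-corrected (normexp, offset 50, which understates the fold of dim probes), quantile normalized and put on the log2 scale. Probes with a mean above the 40th percentile were kept (15418), named from the platform annotation (23978 probes with 1 symbol, 0 with several, 1719 with none), and the brightest stood for each of 11022 genes. Of these, 4400 were under background on every array. A single model held all 4 groups and 6 contrasts (lmFit, then eBayes; degrees of freedom were 4 residual and 11.9 prior). Where all arrays of a group were under background, a fold is given as "at least", against that limit. The number of arrays limits the precision.

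All members are named, with up to 4 called genes per pathway list, 16 listed genes and the 3 most correlated genes of 4 members. The members and lists were chosen with earlier results of these data known. The fit was checked on simulated data. As alternatives, single arrays were left out, fits were limited to the compared arrays, median scaling replaced quantile normalization, background correction or the probe filter was dropped, probes of a gene were averaged, eBayes was run with a trend and robust, and the authors' normalized values were used.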

Additional observations from a re-analysis of the deposited data

How the results depend on the processing

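The number of members called with CCl4 was 6, fell to 3 under median scaling and was 4 to 5 with each array left out. Against CCl4, 3 members at erlotinib 2 mg became 1 under median scaling and 3 to 5 with an array left out, the 5 being without CCl4 replicate 1. At 5 mg, 4 members became 1 under median scaling and 3 to 4 with an array left out. Against vehicle, 2 at each dose became 2 at 2 mg and 2 to 3 at 5 mg with an array left out. Of 54 member differences 17 were called, 8 of them in all 15 alternatives, and no called member difference changed sign. Of those not called, 16 changed sign in at least 1 alternative. Over all genes, median scaling called 481 in place of 1396 with CCl4, 157 in place of 945 at 2 mg and 169 in place of 1003 at 5 mg against CCl4, and 43 in place of 342 and 34 in place of 209 against vehicle. At 2 mg it turned the split of higher to lower calls from 458 to 487 into 59 to 98 against CCl4, and from 187 to 155 into 30 to 13 against vehicle. With an array left out the counts were 926 to 1375, 519 to 933, 528 to 992, 138 to 373 and 79 to 243 in that order. At 5 mg against vehicle the authors' values called 106. Between the doses, 0 to 7 genes were called where the reported count was 2. A group left with 1 array takes its spread from the rest. Of 74 called differences of the other genes that the naming rule covers, described here or not, 59 lost the call in at least 1 alternative. The cause of these differences between settings was not tested. A filter on detection p-values could not be run, since the files hold none. Signal over background limits Saa1, Saa2 and Saa3. No paired analysis was possible because the labels give no pairing of arrays. The replicate numbers used here are not in the labels and follow the order of the samples within each group.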
